A study of Arabidopsis thaliana with 12 samples.

Results

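The sucrose response of Arabidopsis thaliana seedlings was compared between the parental line Col-7 and the mutant acn1-2 over all 12 arrays of the study. For each probe set the comparison was the interaction of the 2 × 2 design, that is the change with sucrose in acn1-2 minus the change with sucrose in Col-7, on log2 intensity. The 4 groups of 3 arrays were Col-7 (stock N3731) untreated, acn1-2 untreated, Col-7 with 100 mM sucrose and acn1-2 with 100 mM sucrose. The line acn1-2 carries a T-DNA insertion in AT3G16910 (ACN1) in the Col-7 background, and it is 1 insertion line. All seedlings were kept at 4 °C in darkness for 4 days and then grown at 20 °C in continual light on agar with MS salts at pH 5.7. Whole seedlings were harvested at growth stage 0.70, and the labels describe 3 pools of 1000 seedlings. The labels do not say whether the replicates were separate cultures, so p-values measure the spread between these arrays, which may be technical.

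ACN1 is a peroxisomal acetyl-CoA synthetase, which activates acetate so that its carbon can enter the glyoxylate cycle. In an oilseed seedling, storage oil leaves lipid droplets, is broken down by beta-oxidation in peroxisomes, and reaches sugar through the glyoxylate cycle and gluconeogenesis. Isocitrate lyase (ICL) is the enzyme that commits isocitrate to the glyoxylate cycle. Sucrose in the medium is a carbon source and also a signal that raises anthocyanin genes and lowers many photosynthesis genes.

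No probe set was annotated to AT3G16910, so the transcript of the disrupted gene was not analysed here. Markers of both shoot and root were measured in every group. The mean intensity of the photosynthesis gene LHCB4.1 was between 2149 and 4078, and that of the root gene PYK10 was between 2418 and 2970. The 1 flower and pollen marker with a probe set, AT5G45880, stayed between 6.03 and 9.43. In whole seedlings, fewer cells of a type and less RNA per cell cannot be told apart. Array medians lay between 41.0 and 47.2, and the number of arrays limits the precision. Replicate 3 of untreated acn1-2 and replicate 3 of Col-7 with sucrose deviated most from their groups, with standard deviations of 0.245 and 0.203 in log2 units against 0.115 to 0.19 for the other 10 arrays. Of 22746 probe sets without controls, 13764 passed the filter on low intensity and were tested.

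Sucrose changed a large part of the transcriptome in both lines, and the directions were alike. At an adjusted p under 0.05 (limma with Benjamini-Hochberg adjustment) the sucrose effect was called for 6913 probe sets (50.2%) in Col-7 and 7837 (56.9%) in acn1-2. The 5796 called in both were 83.8% of the Col-7 calls and 74% of the acn1-2 calls, and 5792 of them moved in the same direction. Across the tested probe sets the sucrose effects of the lines, which share no array, had a Pearson correlation of 0.925; probe sets are not independent replicates. The standard deviation of the sucrose effects was 0.66 in Col-7 and 0.731 in acn1-2, a ratio of 1.11. Among these 5792 probe sets, 3597 (62.1%) had the larger effect in acn1-2, and this share lay between 52.9% and 68.5% when single arrays were left out.

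**Figure D1:**
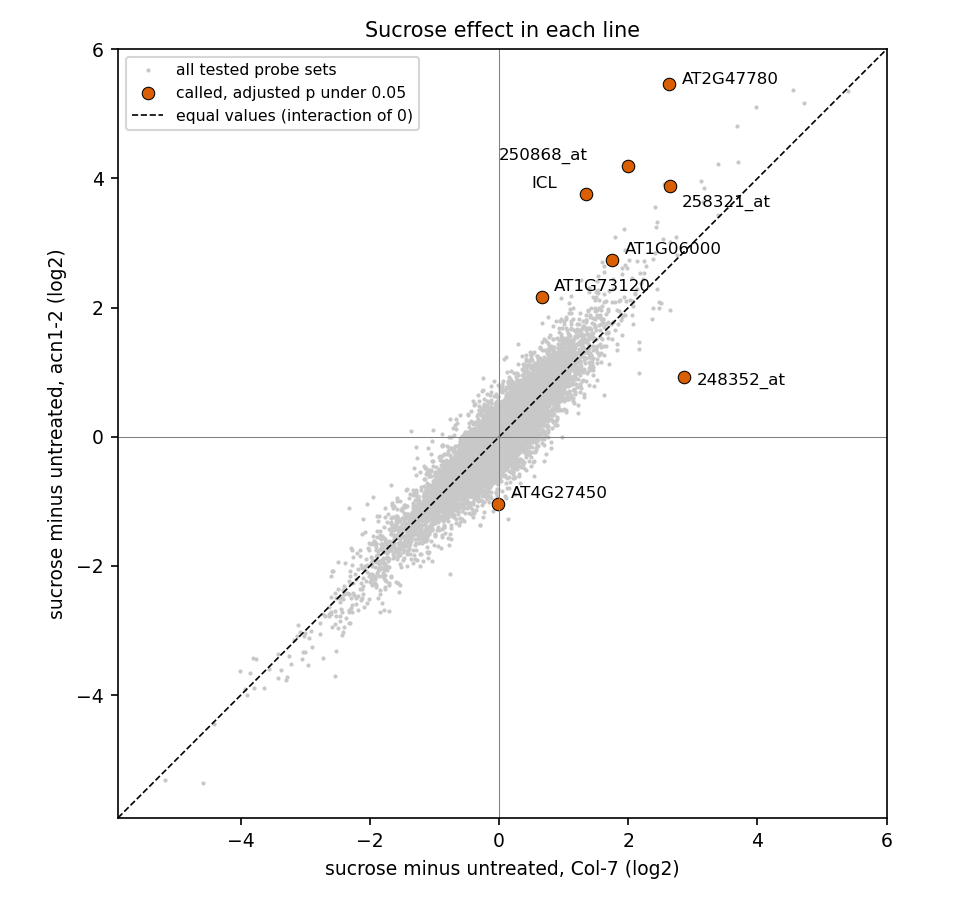
Change with sucrose (log2 intensity, sucrose minus untreated) in Col-7 on the horizontal axis and in acn1-2 on the vertical axis, 1 grey point per tested probe set, with the called probe sets in orange and equal effects on the dashed line. The points lie along the dashed line, with 6 called probe sets above it and 2 below it.

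Against this shared response, 8 of 13764 tested probe sets were called for the interaction at an adjusted p under 0.05, which is 0.0581%. Of these, 6 (0.0436%) had a larger rise with sucrose in acn1-2, and 2 (0.0145%) had a change that was lower in acn1-2. The 5 that name a gene were the lipid droplet protein gene AT2G47780, ICL, AT1G73120, the glycosyltransferase gene AT1G06000 and AT4G27450. The other 3, 250868_at, 258321_at and 248352_at, name no gene in the annotation used here. At an unadjusted p under 0.05 there were 1380 probe sets (10%), 641 (4.66%) with a positive interaction and 739 (5.37%) with a negative one. The median standard error of the interaction was 0.19 and the smallest called value was 0.99 in size. In simulated data 50 probe sets each were given an interaction of 0.5, 1, 1.5 or 2 log2 units. Of those of 1 log2 unit 66% were recovered, and of those of 0.5 8%. The adjusted threshold is looser when many true differences are present, and only 8 were called here. Recovery in these data may therefore be lower, and moderate differences were mostly below what 3 arrays per group could show.

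The largest interaction was that of AT2G47780, which encodes a protein of the small rubber particle family that sits on lipid droplets. Without sucrose its intensity was 175.7, 162.3 and 269.6 in Col-7 (202.5 ± 58.5, SD, n = 3) and 23.3, 29.5 and 31.0 in acn1-2 (27.93 ± 4.08). With sucrose it was 1156.5, 1096.7 and 1426.6 in Col-7 (1227 ± 176) and 1219.1, 1190.2 and 1249.5 in acn1-2 (1220 ± 29.7). The untreated arrays of the lines were thus fully separated, while the acn1-2 sucrose arrays fell inside the Col-7 range. Sucrose raised the gene 6.17-fold in Col-7 and 44.0-fold in acn1-2, an interaction of 2.83 ± 0.25 (SE; limma, adjusted p = 0.000686). The difference lay in the untreated arrays, where acn1-2 was 7.12-fold lower (adjusted p = 3.53e-06). With sucrose the gap was 0.00 with a 95% interval from -0.38 to 0.39.

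ICL, isocitrate lyase (AT3G21720), followed the same course. Untreated Col-7 gave intensities of 886.4, 821.9 and 1178.7 (962.3 ± 190), and untreated acn1-2 gave 193.6, 224.8 and 132.4 (183.6 ± 47.0). With sucrose Col-7 gave 2333.1, 2268.8 and 2632.8 (2412 ± 194), and acn1-2 gave 2395.8, 2345.9 and 2543.4 (2428 ± 103). The lines did not overlap without sucrose and overlapped with it. The rise was 2.53-fold in Col-7 and 13.5-fold in acn1-2, an interaction of 2.42 ± 0.25 (SE; limma, adjusted p = 0.00222). Untreated acn1-2 lay 5.30-fold below Col-7 (adjusted p = 1.6e-05), and the gap with sucrose was 0.01 (95% interval -0.37 to 0.40). Sucrose raised ICL in both lines (limma, adjusted p = 5.18e-05 in Col-7 and 6.8e-09 in acn1-2).

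The probe set 250868_at, with no gene named, had intensities of 353.0, 337.7 and 584.5 in untreated Col-7 and 89.6, 82.8 and 89.7 in untreated acn1-2. With sucrose it had 1600.9, 1504.0 and 1852.8 in Col-7 and 1580.1, 1665.7 and 1581.6 in acn1-2. Again only the untreated arrays were separated between the lines. Its rise was 4.00-fold in Col-7 and 18.4-fold in acn1-2, an interaction of 2.20 ± 0.24 (SE; limma, adjusted p = 0.00271), and the untreated gap was -2.24 on the log2 scale (adjusted p = 2e-05).

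AT1G73120 had the smallest Col-7 response of the probe sets with a larger rise in acn1-2. Its intensities without sucrose were 491.3, 448.7 and 688.4 in Col-7 and 216.1, 240.8 and 188.6 in acn1-2. With sucrose they were 905.0, 860.2 and 775.2 in Col-7 and 984.5, 891.3 and 1002.5 in acn1-2. The untreated groups did not overlap and the sucrose groups did. The rise was 1.58-fold in Col-7 and 4.48-fold in acn1-2, an interaction of 1.5 ± 0.21 (SE; limma, adjusted p = 0.0189). The untreated gap was -1.32 (adjusted p = 0.000692) and the gap with sucrose 0.18 (adjusted p = 1). The call was lost in 10 of 24 alternatives, among them the fit without both arrays that stood apart.

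258321_at, with no gene named, lay lower in acn1-2 without sucrose and higher with it. It had intensities of 176.6, 203.8 and 218.6 in untreated Col-7 and 106.7, 95.7 and 104.6 in untreated acn1-2. With sucrose it had 1239.7, 1267.5 and 1220.1 in Col-7 and 1474.2, 1482.2 and 1577.6 in acn1-2. Neither pair of groups overlapped. Its rise was 6.25-fold in Col-7 and 14.8-fold in acn1-2, an interaction of 1.24 ± 0.14 (SE; limma, adjusted p = 0.00287). The untreated gap was -0.96 (adjusted p = 0.000351), and the sucrose gap of 0.28 (95% interval 0.07 to 0.50) did not pass the test over all probe sets (adjusted p = 0.787).

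AT1G06000 encodes UGT89C1, a glycosyltransferase that adds rhamnose to flavonols. Its intensities without sucrose were 198.2, 187.2 and 247.8 in Col-7 (211.1 ± 32.3, SD, n = 3) and 114.1, 122.5 and 110.2 in acn1-2 (115.6 ± 6.29). With sucrose they were 706.5, 683.7 and 717.4 in Col-7 (702.5 ± 17.2) and 777.1, 779.9 and 747.8 in acn1-2 (768.3 ± 17.8). The groups of the lines did not overlap in either medium, with acn1-2 below Col-7 without sucrose and above it with sucrose. The rise was 3.35-fold in Col-7 and 6.65-fold in acn1-2, an interaction of 0.99 ± 0.15 (SE; limma, adjusted p = 0.0422). The untreated gap was -0.86 (adjusted p = 0.00171) and the sucrose gap 0.13 (adjusted p = 1). This call was close to the threshold and was lost in 14 of 24 alternatives, again including the fit without both arrays that stood apart.

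**Figure D2:**
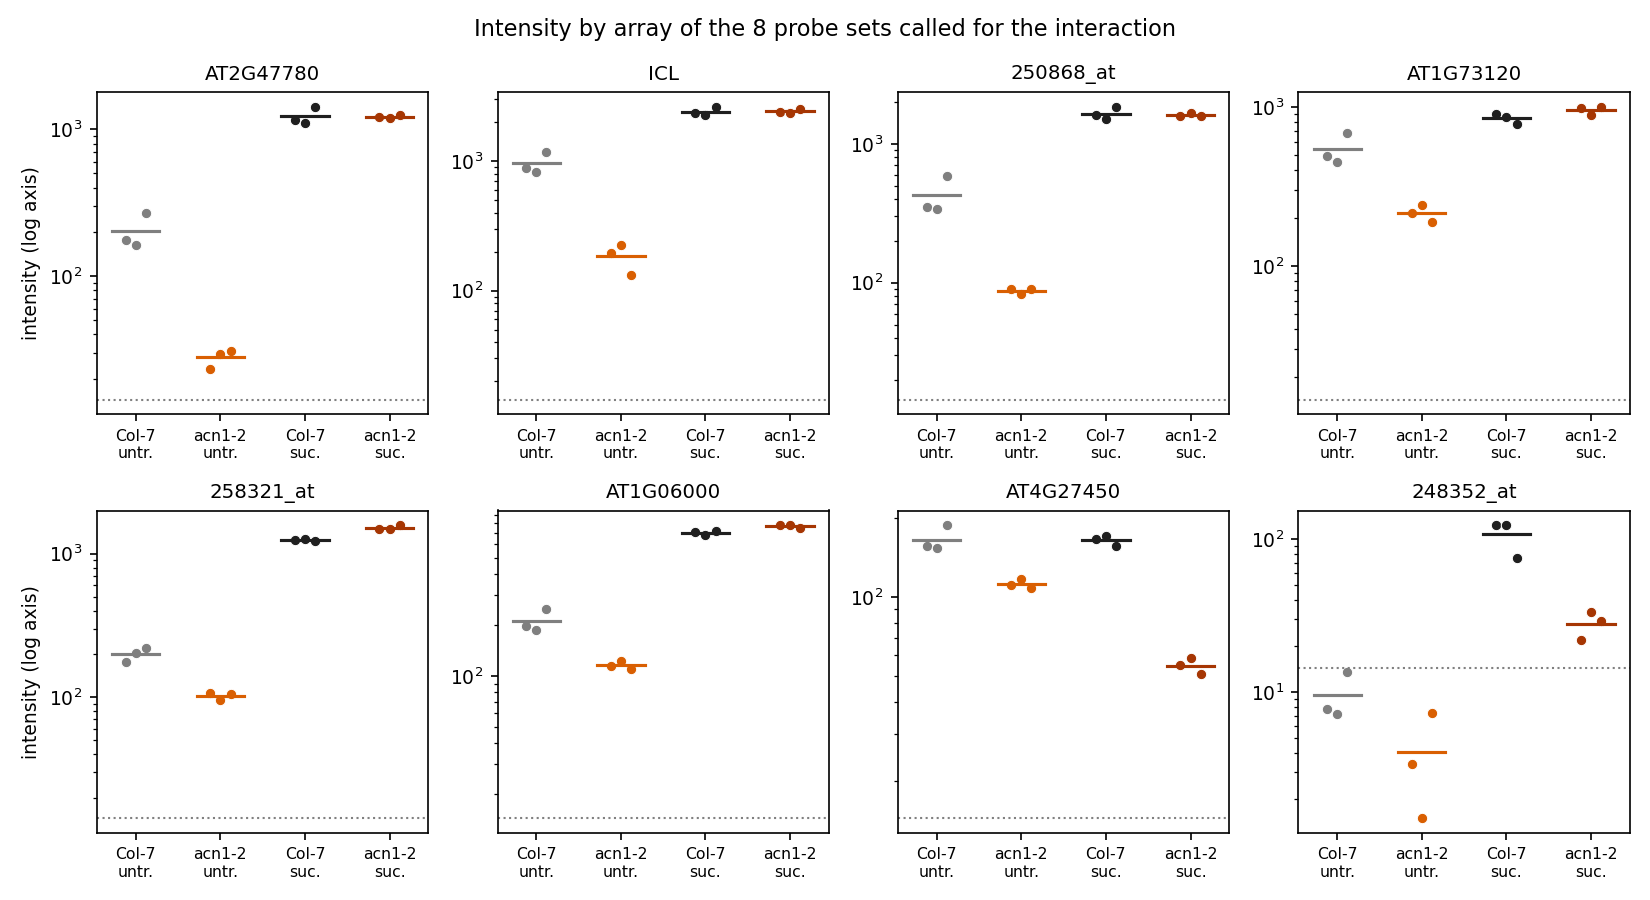
Intensity of each called probe set on every array (points, log axis) with group means as bars; the groups are Col-7 and acn1-2, untreated (untr.) and with sucrose (suc.), and the dotted line is the floor of 14.4. For the first 6 panels and for AT4G27450 the untreated acn1-2 arrays lie below the untreated Col-7 arrays. For AT4G27450 and 248352_at the sucrose arrays of acn1-2 lie below those of Col-7.

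AT4G27450 encodes a protein similar to aluminium-induced proteins and belonged to the list of genes that carbon starvation raises. It showed the opposite course, with intensities in Col-7 of 156.2, 153.4 and 188.2 without sucrose (165.9 ± 19.3, SD, n = 3) and 166.5, 170.4 and 157.0 with it (164.6 ± 6.89). In acn1-2 it had 111.0, 117.5 and 108.9 without sucrose (112.5 ± 4.48) and 55.0, 58.5 and 50.9 with it (54.8 ± 3.80). The Col-7 media overlapped, and every acn1-2 sucrose array lay below every other array. The effect of sucrose was -0.01 in Col-7 and -1.04 in acn1-2 on the log2 scale, an interaction of -1.03 ± 0.15 (SE; limma, adjusted p = 0.0189). A gap was present in both media and larger with sucrose, at -0.56 without it (adjusted p = 0.0393) and -1.59 with it (adjusted p = 5.9e-06). The interaction call was lost in 10 of 24 alternatives, with values between -1.13 and -0.85.

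For 248352_at, with no gene named, all 6 untreated arrays lay under the floor of 14.4, with intensities of 7.2 to 13.6 in Col-7 and 1.5 to 7.3 in acn1-2. With sucrose it reached 122.6, 123.0 and 75.3 in Col-7 and 21.7, 33.2 and 28.9 in acn1-2. The sucrose groups did not overlap. Against the floor the rise was at least 7.24-fold in Col-7 and at least 1.91-fold in acn1-2. The gap with sucrose was -1.92 (adjusted p = 0.000151), and the untreated gap was not measured because both groups lay at the floor. The interaction of -1.92 ± 0.26 (SE; limma, adjusted p = 0.0149) rests on that floor: it was -0.48 with no floor (adjusted p = 0.828) and -1.12 with a pseudocount of 16 (adjusted p = 0.15), and over all alternatives the adjusted p lay between 0.00143 and 0.828.

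The place of the gap was then described for the 8 called probe sets, counting a gap as lying mainly in a medium when it was at least 2 times as large in size there as in the other medium. It lay mainly in the untreated arrays for 6 and mainly in the sucrose arrays for 2, AT4G27450 and 248352_at. For 248352_at this placement rests on the floor, since its untreated gap was not measured, and with no floor the gap lay mainly in the sucrose arrays for 1 of the 8 and in both media for 1. The gap between the lines was itself called without sucrose for 7 of the 8 and with sucrose for 2 of the 8. Over all tested probe sets it was called for 17 higher (0.124%) and 58 lower (0.421%) in acn1-2 without sucrose, and for 0 higher (0%) and 29 lower (0.211%) with sucrose. These gaps share their arrays with the interaction, so the overlap is given as a count and not as separate support. The mean gap over both media is a contrast orthogonal to the interaction in this balanced design, except where the floor replaces every untreated value, as for 248352_at. It was called for 54 probe sets (5 higher, 0.0363%, and 49 lower, 0.356%), among them 6 of the 8. For AT2G47780 (-1.42), ICL (-1.20), 250868_at (-1.14) and AT1G73120 (-0.57) the mean gap was opposite in sign to the interaction, which puts the larger gap in the untreated arrays. For AT4G27450 (-1.07) it had the sign of the interaction, which puts the larger gap in the sucrose arrays. For 248352_at the mean gap (-0.96) is fixed by the same floor as the interaction and adds nothing to it. For 258321_at (-0.34, adjusted p = 0.0717) and AT1G06000 (-0.37, adjusted p = 0.0796) the mean gap was not called.

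**Figure D3:**
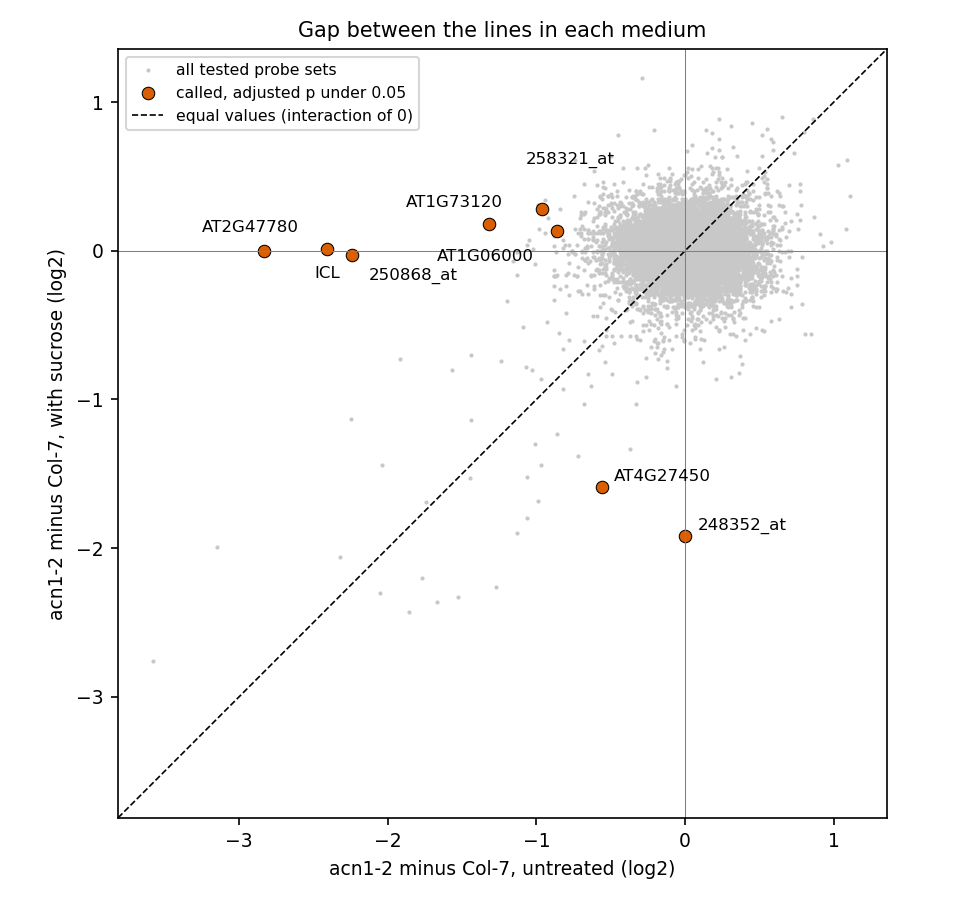
Gap between the lines (acn1-2 minus Col-7, log2 intensity) without sucrose on the horizontal axis and with sucrose on the vertical axis, 1 grey point per tested probe set, called probe sets in orange, and equal gaps on the dashed line. The 6 probe sets with a larger rise in acn1-2 lie between -2.83 and -0.86 on the horizontal axis and near 0 on the vertical axis, and AT4G27450 and 248352_at lie low, at -1.59 and -1.92.

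The wider set at an unadjusted p under 0.05 was described in the same way. The interaction was positive for 641 probe sets. Their gap lay mainly in the untreated arrays for 342 (53.4%), mainly in the sucrose arrays for 59 (9.2%) and in both for 240 (37.4%). The interaction was negative for 739 probe sets. Their gap lay mainly in the untreated arrays for 345 (46.7%), mainly in the sucrose arrays for 68 (9.2%) and in both for 326 (44.1%). Over all 13764 tested probe sets these shares were 42.1%, 20.1% and 37.9%, and the gaps themselves varied more without sucrose (SD 0.238) than with it (SD 0.178). Among the 641, sucrose raised 392 more strongly in acn1-2, lowered 88 less strongly and moved 161 in opposite directions in the lines. Among the 739, sucrose lowered 322 more strongly in acn1-2, raised 134 less strongly and moved 283 in opposite directions.

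Carbon metabolism around acetate was described next, since it is where ACN1 acts. Of the genes of the glyoxylate cycle and gluconeogenesis, 2 of 11 listed had a probe set under their name and both were tested. Beside ICL this was PPDK, pyruvate orthophosphate dikinase, which makes phosphoenolpyruvate for gluconeogenesis. PPDK had intensities of 192.4, 194.9 and 198.1 in untreated Col-7 and 161.9, 171.9 and 141.8 in untreated acn1-2, with no overlap. With sucrose it had 324.1, 326.4 and 351.2 in Col-7 and 341.7, 350.7 and 318.6 in acn1-2, which overlapped. Its interaction of 0.32 pointed the same way as that of ICL and was not called (unadjusted p = 0.0378, adjusted p = 0.466). Of 8 tested genes of acetate, fermentation and ATP-citrate lyase, which includes the chloroplast acetyl-CoA synthetase gene ACS, 0 were called, 0 had an unadjusted p under 0.05, and the median interaction was 0.18, with values from -0.05 to 0.32. All 14 tested genes of the tricarboxylic acid cycle, which oxidises acetyl-CoA in mitochondria, were likewise not called, with a median of 0.03 and values from -0.21 to 0.29. The median over all tested probe sets was -0.02.

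Among lipid droplet surface proteins, 1 of 6 tested was called for the interaction, AT2G47780, against 0.0581% of all tested probe sets. Sucrose raised all 6 in Col-7 (against 25.9% of all tested probe sets) and 5 of the 6 in acn1-2 (against 27.4%). The relatives of AT2G47780 in the same family had small interactions, which were not called. AT1G67360 had mean intensities of 182.7 and 162.1 without sucrose and 455.2 and 446.0 with it, in Col-7 and acn1-2, and an interaction of 0.15. AT3G05500 had 327.6 and 330.0 without sucrose and 421.8 and 388.0 with it, and an interaction of -0.12. The oleosin genes, whose proteins coat seed oil bodies, had interactions of -0.17 (OLEO3), 0.29 (AT3G01570) and -0.29 (AT2G25890), none of them called. For fatty acid beta-oxidation and oil mobilization only 2 of 18 listed genes were tested, AIM1 and the lipase gene SDP1, with interactions of -0.02 and -0.01.

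The flavonoid and anthocyanin genes, which sucrose raises and which give seedlings their purple colour, all had a positive interaction. Of 26 listed genes 6 had a probe set under their name and all 6 were tested. Sucrose raised all 6 in both lines, against 25.9% of all tested probe sets in Col-7 and 27.4% in acn1-2. None was called for the interaction. All 6 had a positive interaction at an unadjusted p under 0.05, against 4.66% of all tested probe sets. Their median interaction was 0.57, beside -0.02 over all tested probe sets, and the median sucrose effect was 3.28 in Col-7 and 3.93 in acn1-2. The median gap was -0.29 without sucrose and 0.30 with it, and 0 of the 6 gaps were called in either medium. With no floor the medians were -0.47 and 0.30, so the balance between the media depends on the floor. Members differed, with gaps of -0.74 and 0.15 for UGT78D1 and -0.06 and 0.42 for AT5MAT. Over the alternatives on the log2 scale 4 to 6 of the 6 had an unadjusted p under 0.05 for the interaction. Their median interaction then lay between 0.49 and 0.82.

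DFR, the dihydroflavonol reductase that opens the anthocyanin branch, had intensities of 62.0, 50.4 and 85.4 in untreated Col-7 and 43.5, 44.9 and 44.6 in untreated acn1-2. With sucrose DFR had 693.5, 717.7 and 623.2 in Col-7 and 801.2, 840.7 and 837.7 in acn1-2. The lines did not overlap in either medium and changed order between the media, an interaction of 0.83. UF3GT, which adds xylose to anthocyanins, had 40.2, 41.9 and 39.0 in untreated Col-7, 30.9, 35.8 and 31.6 in untreated acn1-2, 547.3, 523.5 and 502.7 in Col-7 with sucrose, and 568.9, 646.0 and 654.7 in acn1-2 with sucrose. It changed order in the same way, with an interaction of 0.55. UGT78D1, which adds rhamnose to flavonols, had 82.4, 79.6 and 124.4 in untreated Col-7 and 70.0, 66.8 and 37.6 in untreated acn1-2, then 279.8, 251.2 and 272.5 in Col-7 and 290.8, 329.1 and 275.0 in acn1-2 with sucrose. Its interaction was 0.89, the largest of the 6, and the sucrose groups overlapped. UGT78D2, which adds glucose to flavonoids, had means of 144.5 and 121.4 without sucrose and 415.2 and 519.1 with it, in Col-7 and acn1-2, and an interaction of 0.59. The anthocyanin glucosyltransferase gene AT4G14090 (0.45) and the malonyltransferase gene AT5MAT (0.47) had untreated arrays at the floor in both lines, so their values are set mainly by the sucrose arrays. In those, AT4G14090 was 389.7 to 445.2 in Col-7 and 501.8 to 551.1 in acn1-2, and AT5MAT was 128.3 to 137.8 and 162.1 to 192.6, with no overlap for either.

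The UDP-glycosyltransferases, a large family that attaches sugars to flavonoids, hormones and foreign compounds, overlapped this list. Of 27 tested members 0 were called. At an unadjusted p under 0.05, 7 had a positive interaction and 0 a negative one, against 4.66% and 5.37% of all tested probe sets. The median interaction was 0.29, and 20 of the 27 values were positive, beside 6375 of 13764 over all tested probe sets. Beside UGT78D1, UGT78D2 and UF3GT the 7 were UGT73B1 (0.72), UGT74D1 (0.63), UGT76E11 (0.58) and GT72B1 (0.43). For UGT73B1 the effect of sucrose was -0.70 in Col-7 and 0.02 in acn1-2, and for GT72B1, an enzyme that conjugates foreign phenols, it was -0.42 and 0.01. AT1G06000 carries no family name in its annotation and was not counted here.

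The other families described held no called member. Their counts at an unadjusted p under 0.05 are read against the shares over all tested probe sets. These were 4.66% for a positive interaction, 5.37% for a negative one and 10% for either direction. Of 8 tested xyloglucan transglucosylases, which remodel the cell wall, 2 had an unadjusted p under 0.05, XTH32 (0.55) and XTH33 (0.47), both with a larger rise in acn1-2. Of 12 bZIP transcription factors 2 had, BZIP61 (-0.61) and AT1G06070 (-0.71), both with a negative interaction, and the family's median was -0.24. Of 19 cysteine and serine proteases 2 had, SBT4.12 (-0.44) and scpl20 (-0.73), a share near that of all tested probe sets, and the median was 0.00. Of 68 plastid-encoded genes 1 had, rpoC1 for a subunit of the plastid RNA polymerase, and the median was 0.12 with 49 positive values. The 12 expansins, which loosen cell walls, the 9 glutathione transferases, which conjugate toxic compounds, and the 5 WRKY factors had 0 members with an unadjusted p under 0.05 in either direction, with medians of -0.02, 0.06 and -0.13.

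**Figure D4:**
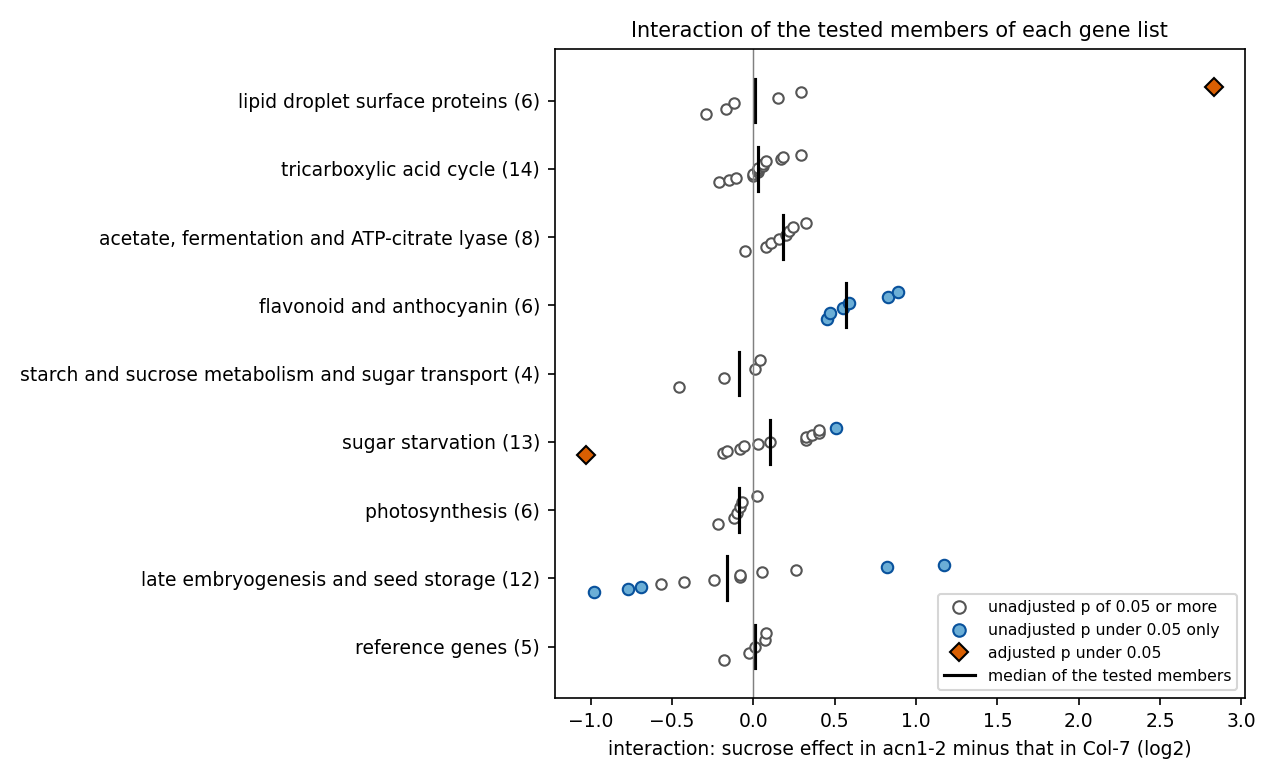
Interaction (log2, the acn1-2 response to sucrose less the Col-7 response) of the tested members of 9 gene lists, 1 marker per gene, with the number tested in brackets and the list median as a black bar. The 6 flavonoid and anthocyanin genes lie between 0.45 and 0.89, the late embryogenesis genes spread to both sides, and the called AT2G47780 and AT4G27450 stand away from the rest of their lists.

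Genes raised by sugar starvation, among them those for leucine breakdown and electron transfer from amino acid oxidation, had a median sucrose effect of -0.69 in Col-7 and -0.74 in acn1-2. Of 13 tested, 8 fell with sucrose in Col-7 (against 24.3% of all tested probe sets) and 7 in acn1-2 (against 29.6%). For the interaction 0 were called higher and 1 was called lower, AT4G27450, against 0.0436% and 0.0145% of all tested probe sets. The median interaction was 0.10. Only ETFBETA, a subunit of the electron transfer flavoprotein, had an unadjusted p under 0.05 in the higher direction (0.51). The share over all tested probe sets was 4.66%. AT3G15450, another gene of the aluminium-induced family, had mean intensities of 1621 and 1520 without sucrose and 119.9 and 138.8 with it, in Col-7 and acn1-2, and AILP1 of the same family had 876.3 and 1034 without sucrose and 543.9 and 561.0 with it. The other family members in the list were AT5G43830, with log2 sucrose effects of -0.06 in Col-7 and 0.04 in acn1-2, and AT3G22850, which rose by 0.91 and 0.94. These 4 relatives thus fell, rose or had effects near 0 with sucrose, and none of their interactions (-0.19 to 0.32) was called. All 6 photosynthesis genes fell with sucrose in both lines, against 24.3% of all tested probe sets in Col-7 and 29.6% in acn1-2, with a median effect of -0.87 in Col-7 and -0.96 in acn1-2, and had interactions from -0.22 to 0.02 and none called. The 4 tested genes of starch and sucrose metabolism had a median interaction of -0.09 and none was called. The 5 reference genes had a median of 0.01.

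The late embryogenesis and seed storage genes, which dry seeds hold and seedlings lose, lay lower in acn1-2 in both media: the gap was called for 11 of 12 tested members without sucrose and for 11 with it, against 0.421% and 0.211% of all tested probe sets called lower in acn1-2, with medians of -1.75 and -2.13. With no floor these median gaps were -2.78 without sucrose and -2.16 with it, so the order of the media depends on the floor. The interaction of these genes went both ways. Of 36 listed genes 20 had a probe set and 12 were tested. For the interaction 0 were called, and the median was -0.16. At an unadjusted p under 0.05, 2 had a positive interaction and 3 a negative one, against 4.66% and 5.37% of all tested probe sets. AT3G02480 had 270.4, 277.7 and 319.0 in untreated Col-7 and 41.3, 27.0 and 30.5 in untreated acn1-2, then 622.1, 663.0 and 811.7 in Col-7 and 152.8, 201.3 and 174.7 in acn1-2 with sucrose. Its interaction was 1.17 on the log2 scale (adjusted p = 0.142), but on the linear scale the rise was smaller in acn1-2, with an interaction of -266.6 intensity units, so the direction depends on the scale. AT3G15670 (0.82) was at the floor on the 3 untreated arrays of acn1-2. ATOEP16-2 (-0.98) was at the floor in all 6 acn1-2 arrays and AT5G07330 (-0.77) in 4 of them, so these values follow mainly the change in Col-7. AtLEA4-1 (-0.69) had mean intensities of 65.4 and 75.2 in Col-7 and 20.2 and 14.2 in acn1-2, without and with sucrose. The median interaction of the list lay between -0.56 with a higher floor and 0.69 with no floor, where 1 member was called.

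Named genes just outside the threshold are given as values only. On the higher side they were RALFL31, a small signalling peptide gene of the RALF family (0.83, adjusted p = 0.126), AT3G02480 above, and AT1G67910 (0.76, adjusted p = 0.158). For AT1G67910 the gap lay in the untreated arrays (-0.59) and was small with sucrose (0.17). On the lower side they were Fes1B, a nucleotide exchange factor gene for HSP70 chaperones (-1.08, adjusted p = 0.0873), PUB25, a U-box ubiquitin ligase gene (-0.77, adjusted p = 0.115), and AT1G62510 (-1.16, adjusted p = 0.121). Sucrose lowered AT1G62510 by a log2 effect of -2.54 in Col-7 and -3.71 in acn1-2.

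How firmly the 8 calls stood differed between them. AT2G47780, ICL, 250868_at and 258321_at were called in 23 of 24 alternatives and lost on the linear scale alone. The log2 interactions of these 4 lay between 2.29 and 3.03, between 2.20 and 2.58, between 1.95 and 2.35, and between 1.14 and 1.33. AT1G73120 and AT4G27450 were called in 14 of 24, AT1G06000 in 10 of 24, and 248352_at in 14 of 23, since it did not pass the stricter filter. Without both arrays that stood apart 13 probe sets were called, 6 of the 8 among them, and without replicate 3 of Col-7 with sucrose alone 19 were called, all 8 among them. Replicate 3 of untreated Col-7 held the highest untreated Col-7 value for each of the 8. Without it the interactions were 2.61 for AT2G47780, 2.26 for ICL, 1.95 for 250868_at, 1.31 for AT1G73120, 1.17 for 258321_at and 0.87 for AT1G06000. Each of these was below the reported value. AT4G27450 gave -1.13 against -1.03, 248352_at stayed at -1.92, and all 8 were still called.

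**Figure D5:**
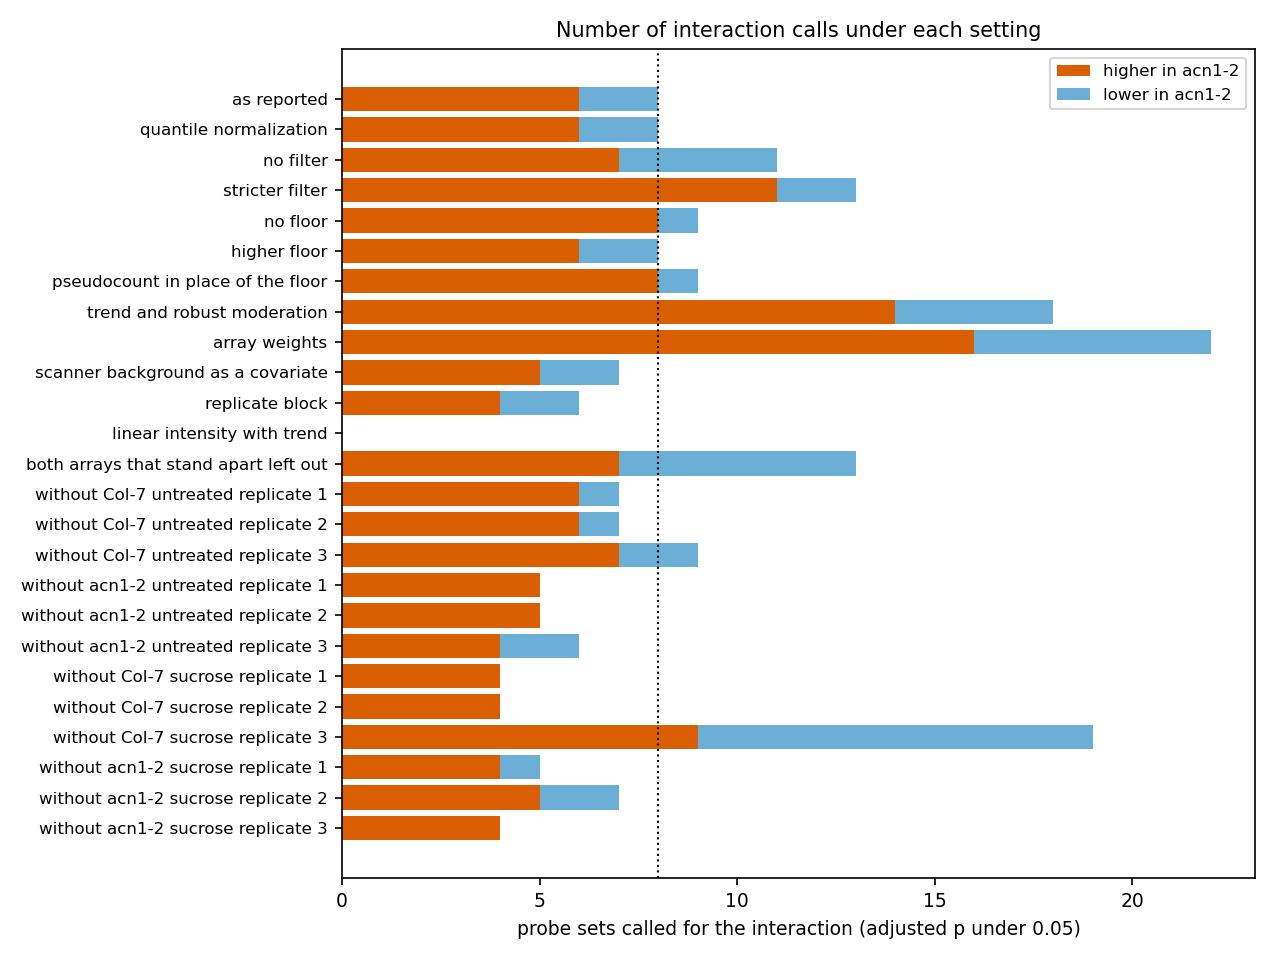
Number of probe sets called for the interaction (adjusted p under 0.05) as reported and under each of 24 alternatives. Positive interactions (labelled higher in acn1-2) are in orange and negative ones (labelled lower) in blue. The bars start at 0 and the dotted line marks 8. The count lies between 4 and 22 except on the linear scale, where it is 0.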

How the data were processed

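RNA of whole seedlings was measured on 12 Affymetrix ATH1 arrays (1 colour). The deposited table holds 1 linear intensity per probe set and array; from the values, the authors had scaled each array to a 2% trimmed mean of about 100.01. The summarising software and genome build are not given in the sources used here; coordinates are therefore left out. The 64 control probe sets were removed. A floor at the 25th percentile of all values (14.4) was applied, log2 was taken, and probe sets with a mean of at least the pooled 40th percentile (29.1) were kept. Group means were fitted with limma 3.58.1 in R 4.3.3 (8 residual degrees of freedom, prior 4.87), with two-sided contrasts and Benjamini-Hochberg adjustment over all 13764 tested probe sets. The fit was tested on simulated data.

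Genes were named by the platform annotation, joined to locus names from RefSeq: 13513 probe sets name 1 gene, 503 several and 8730 none, so lists and families are covered only in part. Families were matched by gene symbol. The comparison, the gene lists and the families were chosen with earlier results of these data known; patterns for plastid genes and cytochrome P450 were corrected after the files were read. Named genes are the called probe sets naming 1 gene, called list members and, as values, the 3 nearest the threshold on each side; other probe sets and list members were named after their values were seen. Equal replicate numbers were not treated as pairs: 18 correlations of deviations between equal numbers lay between -0.0953 and 0.139, and 3 exceeded 0.1. Unequal numbers were not compared, so these values cannot show whether the arrays were paired. Alternatives covered normalization, filter, floor, pseudocount, moderation, array weights, scanner background, a replicate block, the linear scale and left-out arrays.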

Additional observations from a re-analysis of the deposited data

Results flagged for a closer look

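A test of the difference itself, the interaction in limma, marked the sucrose responses of 8 probe sets as unlike between the lines. Values are log2 sucrose effects in acn1-2 minus those in Col-7, over 3 arrays per group. They were 2.83 for AT2G47780, 2.42 for ICL, 2.20 for 250868_at, 1.5 for AT1G73120, 1.24 for 258321_at and 0.99 for AT1G06000, all with a larger rise in acn1-2. They were -1.03 for AT4G27450, which fell in acn1-2 while the Col-7 effect was -0.01, and -1.92 for 248352_at, which rose less in acn1-2.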

How the results depend on the processing

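Of 8 calls (6 higher, 2 lower), a stricter filter gave 13 (11 higher), no filter 4 lower, no floor and a pseudocount each 1 lower, trend with robust moderation 18 (14 higher, 4 lower), array weights 22 (16 higher, 6 lower), and leaving out both arrays that stood apart 13 (6 lower). On linear intensity limma gave 0 calls (0 higher, 0 lower), with 1527 probe sets at an unadjusted p under 0.05. Leaving out 1 array at a time gave 4 to 19 calls, 4 to 9 higher and 0 to 10 lower; the 19 came without Col-7 sucrose replicate 3, the fewest (4) without Col-7 sucrose replicate 1 or 2 or acn1-2 sucrose replicate 3, and 5 without acn1-2 untreated replicate 1 or 2 or acn1-2 sucrose replicate 1. The replicate block gave 6 calls, 5 of them among the 8. The cause of these moves was not tested. With a ratio of 3, or with no floor, the gap lay mainly in the sucrose arrays for 1 of the 8 and in both media for 1. No interaction of the 8 turned its direction. The ratio of the spread of sucrose effects lay between 1.06 and 1.19. Arrays per group, unnamed probe sets and values at the floor limit what can be read; 3 arrays recovered 8% of simulated interactions of 0.5.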

Other observations

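Across the probe sets of control transcripts, the ratio of the 3′ to the 5′ intensity of actin was 2.90 ± 0.564 (SD, n = 3) in untreated Col-7 and 2.31 ± 0.557 in untreated acn1-2, and 6.40 ± 0.491 and 6.02 ± 0.604 with sucrose. For GAPDH it moved the other way, from 1.15 and 1.25 without sucrose to 0.851 and 0.877 with it. For ubiquitin it was 2.11 and 2.33 without sucrose and 1.96 and 1.91 with it, in Col-7 and acn1-2. The part of these ratios in the sucrose responses was not tested.

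Further probe sets that name 1 gene were called in fits other than the one reported, and are given as values. AT2G23910 had an interaction of 1.20 with array weights (adjusted p = 0.0338) and 1.13 without both arrays that stood apart (adjusted p = 0.0347), against an adjusted p of 0.266 in all arrays weighted equally. AT4G38410 had 1.58 without both arrays (adjusted p = 0.0151) and 0.93 with them (adjusted p = 0.464). RALFL31 (0.88, adjusted p = 0.0229) and AT1G62510 (-1.02, adjusted p = 0.0338) were called with array weights. Among defensin genes LCR67 had a sucrose effect of -0.18 in Col-7 and 0.56 in acn1-2. In the reported fit its interaction of 0.74 was not called (limma, adjusted p = 0.31). Its gap was -1.44 without sucrose (adjusted p = 0.000415) and -0.70 with it (adjusted p = 0.155).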
